A study of Mus musculus with 6 samples.

Results

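CREB, CREM, CRTC and SIK signalling was followed through 10 genes in primary fibroblasts grown from the gingiva of wild-type C57BL/6 mice. The genes were taken by symbol from the 20665 genes of the deposited table: the transcription factors Creb1 and Crem, the coactivators Crtc1, Crtc2 and Crtc3, the kinases Sik1, Sik2 and Sik3, and the phosphodiesterases Pde4b and Pde4d. All 10 were present under 1 identifier each, and all 10 passed the filter on low values. In 3 libraries the cells had received Er:YAG laser light, an infrared wavelength that water absorbs strongly, at 3.9 J/cm2 and from 25 cm away in a 35-mm culture dish. Non-irradiated cells of the same kind gave the remaining 3 libraries. Both groups carry the label 3 h and were grown in medium with 10% serum. Separate animals or cultures are not named in the labels, and p-values therefore speak only of the scatter among these 6 libraries, some of which may be technical.

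Cyclic AMP is made by adenylyl cyclases and activates protein kinase A, which phosphorylates CREB, a factor that binds DNA sites called cAMP response elements (CREs). CRTC proteins are coactivators that enter the nucleus once calcineurin removes their phosphates, and the salt-inducible kinases (SIKs) put those phosphates back and hold CRTCs in the cytoplasm. Protein kinase A restrains the SIKs, and PDE4 enzymes break cAMP down. Crem encodes activating forms as well as ICER, a short repressor made from an internal promoter, and Sik1, Crem and the PDE4 genes are themselves known CREB targets in several tissues, so the pathway feeds back on its own components.

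The 6 libraries held 45178137 to 59904715 recovered counts, taking the smallest step of each library as 1 count. The 7 fibroblast markers (Col1a1, Col1a2, Pdgfra, Pdgfrb, Vim, Thy1 and Dcn) were all present, and their normalized counts summed to between 1503398 and 1812908 in irradiated and between 1426932 and 1917933 in non-irradiated libraries. The summed level of epithelial markers was at most 19.6 in irradiated and 18.3 in non-irradiated libraries, that of immune markers at most 59.7 and 49.9, and that of endothelial markers at most 222 and 235. Muscle markers summed to 565 to 3720 in irradiated and 693 to 2367 in non-irradiated libraries, mostly from the smooth muscle myosin gene Myh11, which followed the replicate number, with 494, 901 and 3680 normalized counts in irradiated and 618, 714 and 2336 in non-irradiated replicates 1, 2 and 3. The fibroblast marker Dcn also followed the replicate number, with 6256, 4382 and 2356 normalized counts in irradiated replicates 1, 2 and 3. In non-irradiated replicates Dcn had 5814, 5132 and 1588. The endothelial marker Kdr fell from 184 to 55.8 in irradiated and from 185 to 42.0 in non-irradiated replicates 1 to 3. Col1a1, Pdgfra and Vim did not pass limma's F test of the replicate number. Ckm, a skeletal muscle marker, and the epithelial markers Krt5, Krt14 and Krt76 were not analysed here. The part of such cells in the members' values was not tested. Irradiated and non-irradiated libraries with the same number departed from their group means together, and they were compared as pairs. Among single libraries, non-irradiated replicate 2 held the lowest value of the 6 libraries in 25.1% of tested genes and the highest in 23.1%. Each of the other libraries held either extreme in 12.0% to 19.0%. Values without pair 2 are given for members whose results rest on it, and ratios in each pair for some other genes.

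No member passed the test for irradiation. In limma with the replicate number as a block, 0 of 10 members had an adjusted p under 0.05, where 3 of 16141 genes did (0.0186%), and 0 had an unadjusted p under 0.05, against 3.26% of all tested genes. The count of members was also 0 without the block (0% of all genes), in edgeR with the replicate number as a term (0.0124% of all genes) and in DESeq2 with that term (0.159%). It was 0 in the authors' deposited table as well, where 0.159% of genes passed. The groups overlapped in all 10 members, where 4.73% of tested genes had groups that did not overlap. The largest fold change belonged to Sik1 and the only negative one to Crtc1. A missed threshold does not show equal levels, so the 95% interval of each fold change is given with the member.

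The promoters of members were searched for the CRE, TGACGTCA, and for its short core, TGACG or CGTCA on the other strand, which the CRE contains in overlap. RefSeq windows on GRCm38.p6, from 250 bases before to 50 bases after a gene start, were matched by symbol for 7 of the 10 members, as 10 windows; Sik1, Crtc2 and Crem were not searched. None of the 10 windows held the full CRE, which stood in 1.79% of all 32817 windows. The core stood in 1 window each of Sik2, Sik3 and Pde4b, against 20.8% of all windows. These 3 windows are shown because they are the members' windows with the core, and that of Nr4a1 because this textbook CREB target had the smallest p among the targets described further on. Sequences run 5′ to 3′ along the gene, and capitals mark the core.
Sik3, chr9:46012570-46012869, plus strand: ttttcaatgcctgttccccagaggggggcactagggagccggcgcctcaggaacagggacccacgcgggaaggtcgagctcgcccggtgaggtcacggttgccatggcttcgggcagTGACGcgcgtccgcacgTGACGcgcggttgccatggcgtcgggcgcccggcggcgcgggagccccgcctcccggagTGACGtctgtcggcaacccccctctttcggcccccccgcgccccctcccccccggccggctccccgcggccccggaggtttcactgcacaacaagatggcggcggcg
Sik2, chr9:51009024-51009323, minus strand: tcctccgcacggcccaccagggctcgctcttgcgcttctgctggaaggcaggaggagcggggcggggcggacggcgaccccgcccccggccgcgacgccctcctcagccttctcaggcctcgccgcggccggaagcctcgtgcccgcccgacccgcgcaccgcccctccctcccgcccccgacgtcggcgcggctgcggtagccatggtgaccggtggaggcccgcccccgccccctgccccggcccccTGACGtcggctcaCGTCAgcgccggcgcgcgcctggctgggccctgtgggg
Pde4b, chr4:102421305-102421604, plus strand: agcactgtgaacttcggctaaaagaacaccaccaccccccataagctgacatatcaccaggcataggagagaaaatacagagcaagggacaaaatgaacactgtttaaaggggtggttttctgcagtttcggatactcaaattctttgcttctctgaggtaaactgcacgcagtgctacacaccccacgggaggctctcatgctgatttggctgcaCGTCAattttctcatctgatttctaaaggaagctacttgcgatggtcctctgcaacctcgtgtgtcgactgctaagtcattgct
Nr4a1, chr15:101266596-101266895, plus strand: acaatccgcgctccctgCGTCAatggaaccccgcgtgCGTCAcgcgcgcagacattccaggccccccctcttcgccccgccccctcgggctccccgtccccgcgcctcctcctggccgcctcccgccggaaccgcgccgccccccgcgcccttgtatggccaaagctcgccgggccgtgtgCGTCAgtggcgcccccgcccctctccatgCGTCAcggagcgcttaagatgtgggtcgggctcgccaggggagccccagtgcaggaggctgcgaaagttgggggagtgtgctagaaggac
In Sik3 the cores began at -133, -116 and -57 bases from the gene start, in Sik2 at -1 and 12, in Pde4b at -34, and in Nr4a1 at -233, -213, -69 and -40. The other 3 Pde4b windows and the windows of Creb1, Crtc1, Crtc3 and Pde4d held no core in these letters. A match is a string of letters in a window and was not tested as a binding site.

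Among the transcription factors, Creb1, which binds CREs and is switched on by phosphorylation, had 2155, 2110 and 1831 normalized counts in irradiated replicates 1, 2 and 3, against 2378, 1522 and 1805 in non-irradiated replicates 1, 2 and 3. The irradiated values lay inside the range of the non-irradiated ones, whose replicate 2 was the lowest of the 6. The log2 fold change of Creb1 was 0.12 ± 0.13 (SE; 95% interval -0.17 to 0.41), with an adjusted p of 0.995 in limma. Without pair 2 the log2 fold change of Creb1 was -0.06.

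Crem, which encodes both activators and the repressor ICER, had 324, 495 and 347 normalized counts in irradiated libraries, against 354, 411 and 345 in non-irradiated libraries. Replicate 2 was the highest of each group and the other 4 values lay close together. Its log2 fold change was 0.05 ± 0.15 (SE; 95% interval -0.30 to 0.40; adjusted p = 0.995 in limma), and -0.06 without pair 2. Crem counts are per gene, so ICER and the longer forms cannot be told apart here. In GENCODE M21 (GRCm38), 472 exonic bases of Crem overlap Gm6225 on the opposite strand, and since the strand setting is not given in the sources used here, reads of the 2 genes cannot be told apart there.

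The 3 coactivators had fitted fold changes of both signs, none past the threshold, and equal levels were not tested. Crtc2, the family member best known from the fasting response of the liver, had 1382, 1575 and 1473 normalized counts in irradiated libraries, against 1376, 1411 and 1417 in non-irradiated libraries. Its non-irradiated SD was 21.9 normalized counts on a mean of 1402, the smallest SD of any member in either group. Each irradiated library stood above its pair, in pair 1 by a log2 ratio of 0.01, and the log2 fold change was 0.07 ± 0.10 (SE; 95% interval -0.15 to 0.30), or 0.03 without pair 2.

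Crtc1, the form best known from neurons, had 1459, 1290 and 1431 normalized counts in irradiated libraries, against 1755, 1330 and 1502 in non-irradiated libraries. It was the 1 member that was lower in 3 of 3 pairs, a pattern held by 11% of tested genes, with overlapping groups. Its log2 fold change was -0.13 ± 0.10 (SE; 95% interval -0.36 to 0.11; adjusted p = 0.995 in limma). Crtc3 had 1295, 1594 and 1676 normalized counts in irradiated libraries, against 1431, 1336 and 1541 in non-irradiated libraries. Pair 1 was lower and pairs 2 and 3 higher, and the log2 fold change of Crtc3 was 0.08 ± 0.11 (SE; 95% interval -0.18 to 0.33), or -0.01 without pair 2.

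With all pairs the SIK genes had the 3 largest positive fold changes of the members, none past the threshold, but this order did not hold without any 1 of the pairs. Without pair 1 or pair 3 Creb1 (0.246 or 0.165) stood above Sik3 (0.225 or 0.161) and without pair 2 Pde4d (0.08) was the largest. Sik1, the inducible SIK, had 1264, 1198 and 1025 normalized counts in irradiated libraries, against 1250, 636 and 945 in non-irradiated libraries. The irradiated libraries were higher in 3 of 3 pairs, as in 11.8% of tested genes, but by log2 ratios of 0.02, 0.91 and 0.12 in pairs 1, 2 and 3. The log2 fold change of Sik1 was 0.35 ± 0.17 (SE), with a 95% interval of -0.04 to 0.74, which is 0.970-fold to 1.67-fold, and an adjusted p of 0.995 in limma (unadjusted p = 0.0756 in limma). Without pair 2, in which the non-irradiated library was the lowest of the 6, the log2 fold change of Sik1 was 0.07, and without pair 1 or pair 3 it was 0.51 or 0.46. The authors' deposited table gives Sik1 a log2 fold change of 0.34 with an unadjusted p of 0.0648 and an adjusted p of 0.99997 in DESeq2.

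Sik2, a SIK that phosphorylates CRTC2, had 1032, 1418 and 1686 normalized counts in irradiated libraries, against 1277, 817 and 1424 in non-irradiated libraries. Its pairs pointed both ways, with log2 ratios of -0.31, 0.79 and 0.24, and non-irradiated replicate 2 was again the lowest library. The log2 fold change was 0.24 ± 0.18 (SE; 95% interval -0.17 to 0.66; adjusted p = 0.995 in limma). Without pair 2 it was -0.03, and without pair 1 it was 0.52 (adjusted p = 0.201 in limma). In GENCODE M21, 1429 exonic bases of Sik2 overlap Ppp2r1b on the opposite strand, so part of the count is uncertain without a strand setting.

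Sik3, a widely expressed SIK with roles in mouse skeletal growth, had 3023, 3873 and 3429 normalized counts in irradiated libraries, against 2992, 3130 and 3107 in non-irradiated libraries. The non-irradiated libraries were close together (SD 73.7, n = 3), and irradiated replicates 2 and 3 stood above all of them, while irradiated replicate 1 stood within their range. Sik3 was higher in 3 of 3 pairs, with log2 ratios of 0.01, 0.31 and 0.14. Its log2 fold change was 0.15 ± 0.09 (SE; 95% interval -0.06 to 0.37; adjusted p = 0.995 in limma), and 0.08 without pair 2.

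**Figure D1:**
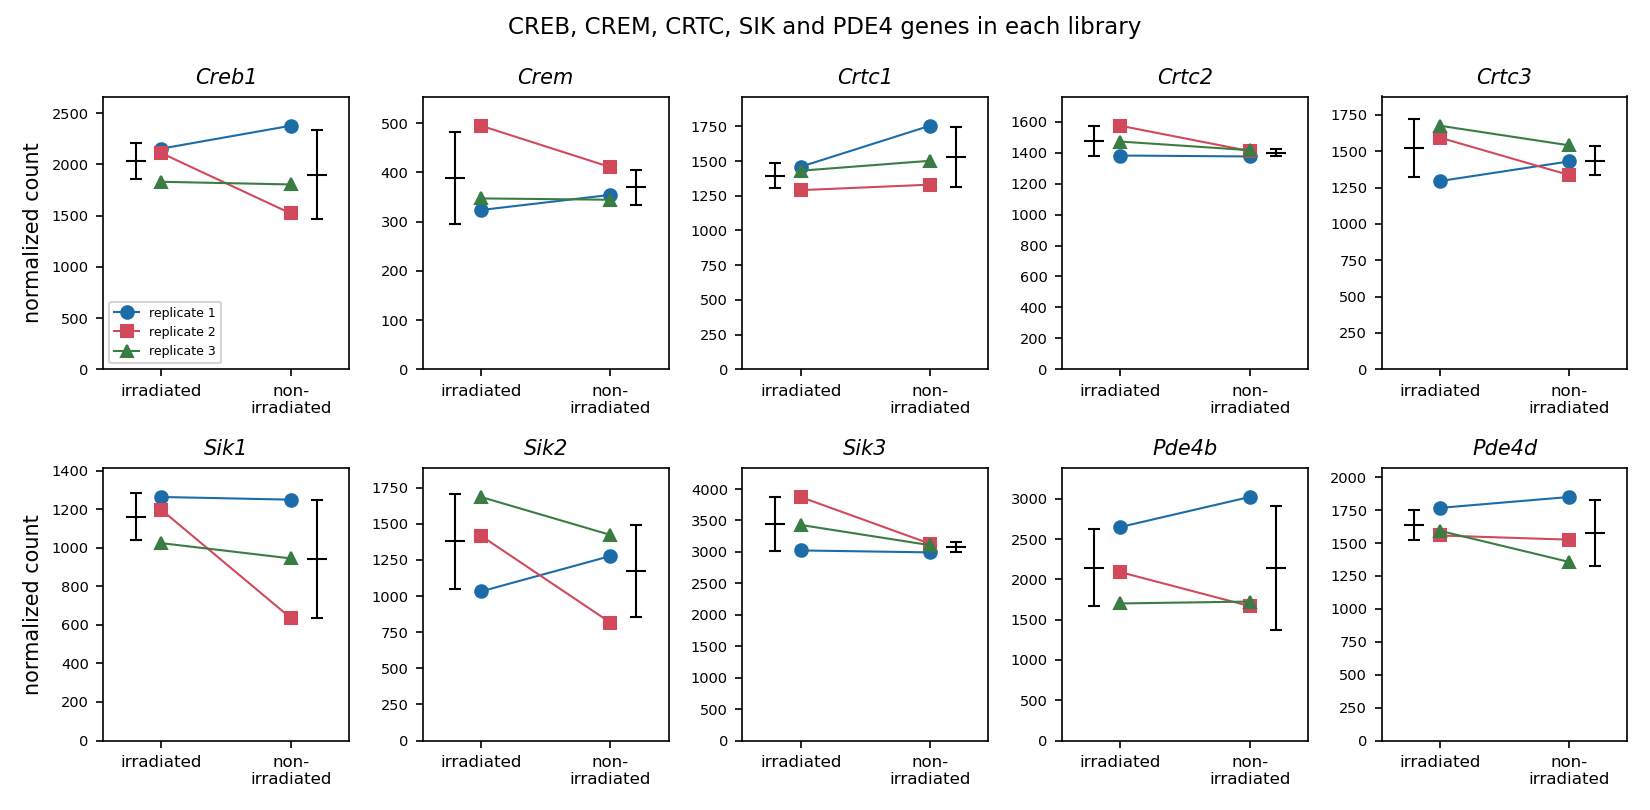
Normalized counts of the 10 members, with 1 panel per gene and the vertical axis starting at 0; coloured lines join same-numbered libraries, irradiated on the left and non-irradiated on the right, and black bars give the mean and SD of each group (n = 3). The groups overlap in all 10 panels, and the non-irradiated library of replicate 2 is the lowest point for Creb1, Sik1, Sik2 and Pde4b.

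The PDE4 genes had fitted log2 fold changes near 0, as had Crem, Crtc2 and Crtc3, and equal levels were not tested. Pde4b, a cAMP phosphodiesterase, had 2649, 2090 and 1701 normalized counts in irradiated libraries, against 3022, 1668 and 1724 in non-irradiated libraries. Replicate 1 was the highest of each group, and the means were 2146 ± 477 in irradiated and 2138 ± 766 in non-irradiated libraries (SD, n = 3). The log2 fold change of Pde4b was 0.04 ± 0.12 (SE), and its 95% interval of -0.23 to 0.30 spans 0.856-fold to 1.23-fold. Without pair 2 it was -0.10.

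Pde4d, a second gene of that enzyme family, had 1767, 1558 and 1593 normalized counts in irradiated libraries, against 1850, 1526 and 1356 in non-irradiated libraries. It was the 1 member whose largest log2 ratio was not in pair 2, with -0.07, 0.03 and 0.23 in pairs 1, 2 and 3. Its log2 fold change was 0.07 ± 0.10 (SE; 95% interval -0.17 to 0.30; adjusted p = 0.995 in limma), and -0.02 without pair 3.

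Across the 10 members the median log2 fold change was 0.08, beside 0.01 over all tested genes, and 9 of 10 values were positive, beside 51.5% of all tested genes. Higher in 3 of 3 pairs were 3 members (Crtc2, Sik1 and Sik3), where 11.8% of tested genes were, and lower in 3 of 3 was 1, where 11% were. The signs were uneven between the pairs: 3 members were positive in pair 1, 9 in pair 2 and 8 in pair 3. The median log2 ratio of the members was -0.14, 0.29 and 0.09 in pairs 1, 2 and 3, beside -0.02, 0.02 and 0.02 over all tested genes. Pair 2 held the largest ratio of 9 members, as it did for 38.8% of all tested genes; this count was chosen after its values were seen. Without pair 2 the median over the members was -0.02, and without pair 1 it was 0.17, with each of the 10 fold changes higher than with all pairs. The part of non-irradiated replicate 2 in these signs was not tested beyond leaving it out.

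**Figure D2:**
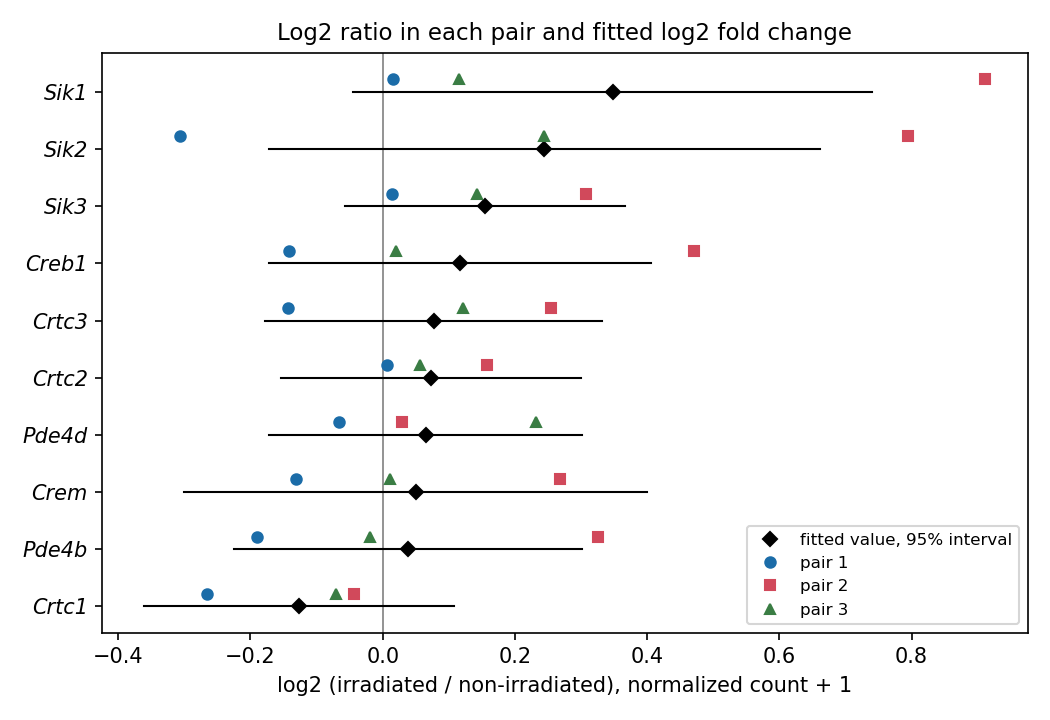
Log2 ratio of irradiated over non-irradiated normalized counts (plus 1) in each same-numbered pair (coloured symbols) with the fitted log2 fold change and its 95% interval (black diamonds and lines), members ordered by fold change. Every interval includes 0, and the pair 2 symbol lies farthest right for all members except Pde4d.

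The replicate number separated 1 member. Pde4b averaged 2835, 1879 and 1712 normalized counts over both libraries of replicates 1, 2 and 3, a ratio of 1.66 between the highest and the lowest (adjusted p = 0.0199 in limma's F test of the replicate number). Of all tested genes, 2165 of 16141 (13.4%) passed that test. Replicate 1 was the high one for Pde4b in both groups, and the difference between replicates was larger than that between irradiated and non-irradiated cells. Without pair 1 the call of Pde4b ended (adjusted p = 0.601 in limma), as it did with no filter on low values (adjusted p = 0.0619 in limma). Sik2 had replicate means of 1155, 1117 and 1555. It differed between replicates without pair 1 (adjusted p = 0.0372 in limma) or pair 2 (adjusted p = 0.0350 in limma). With all pairs it did not (adjusted p = 0.251 in limma). Among the 16141 tested genes, 1345 differed without pair 1 and 2579 without pair 2. What the replicate numbers stand for is not given in the labels.

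Levels were compared between genes per kilobase of exon, using GENCODE M21 exon lengths. In irradiated libraries Sik3 and Crtc2 stood highest, at 369 ± 45.6 and 361 ± 23.6 normalized counts per kb (SD, n = 3), against 330 ± 7.91 and 342 ± 5.36 in non-irradiated libraries. Sik3 had the higher mean in irradiated cells, where the ranges of the 2 genes overlapped, and Crtc2 in non-irradiated cells, where they did not. That gap was narrow, between a lowest Crtc2 value of 336.2 and a highest Sik3 value of 335.9. Sik1 had 226 ± 24.1 normalized counts per kb in irradiated and 184 ± 59.8 in non-irradiated libraries, and Pde4b 203 ± 45.1 in irradiated and 202 ± 72.5 in non-irradiated libraries. Crtc3, Creb1, Sik2, Pde4d and Crtc1 followed, between 125 and 154 normalized counts per kb in irradiated and between 123 and 146 in non-irradiated cells, and neighbours in the order of each group had overlapping ranges. Crem was the lowest, at 65.9 ± 15.8 in irradiated and 62.8 ± 6.07 in non-irradiated libraries, and in both groups all of its values lay below all of those of every other member. Among the coactivators Crtc2 was the most abundant per exon length, and among the kinases Sik3. The place of Crtc2 rests on its length of 4094 bases, against 9850 for Crtc3 and 11182 for Crtc1. Before division the irradiated means of Crtc2, Crtc3 and Crtc1 were 1477, 1521 and 1393 normalized counts. The non-irradiated means were 1402, 1436 and 1529, so Crtc1 was lowest in irradiated and highest in non-irradiated libraries, with overlapping ranges in each group. The exon lengths join all annotated exons, whether or not the cells use them.

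**Figure D3:**
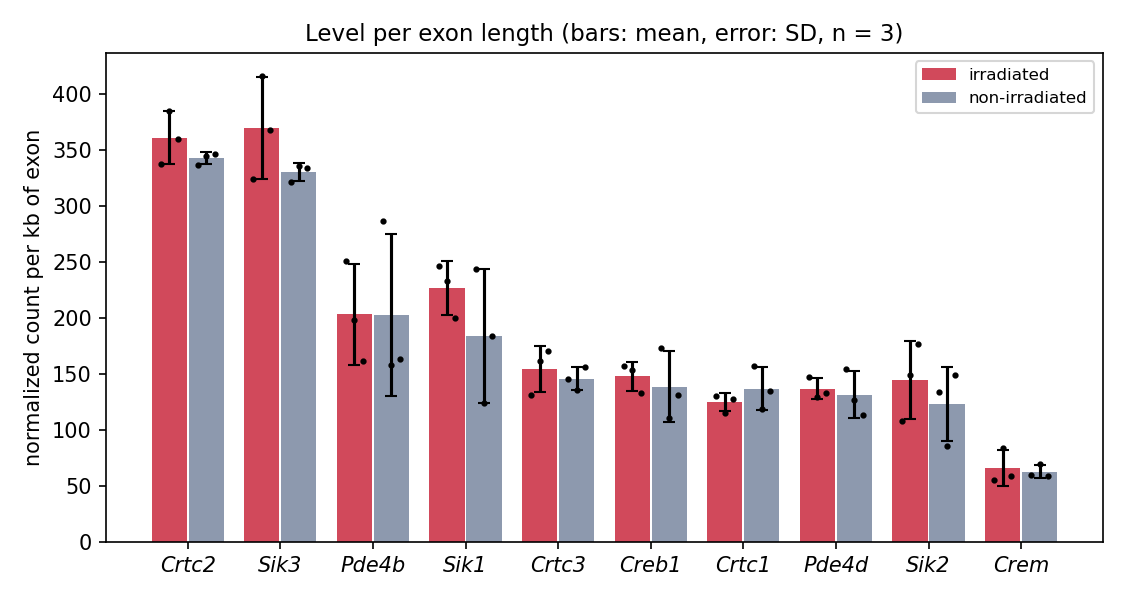
Normalized counts per kilobase of exon for the 10 members, irradiated (red, left bar) and non-irradiated (grey, right bar); bars are means, error bars SD (n = 3) and dots single libraries. Crtc2 and Sik3 stand highest and Crem lowest in both groups.

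Members did not vary as one block across the libraries. Creb1 followed Sik1 with a Pearson correlation of 0.95 on the log2 scale over the 6 libraries, Pde4b with 0.74 and Crem with -0.17. Crtc2 and Sik3 followed Crem with 0.78 and 0.77, and Crtc1 with -0.63. Ordered by correlation among 11884 other genes, Creb1 was number 51 and Pde4b number 1311 for Sik1. For Crem, Crtc2 was number 698 and Sik3 number 768. Many other genes thus followed Sik1 or Crem more closely than these members did. Among the 11884 other named genes whose mean reached 50 normalized counts, those most like Sik1 were Zc3h13, Tsc1, Zfp280d, Zfp62 and Ankib1, with correlations of 0.99, 0.98, 0.98, 0.98 and 0.98. These are descriptions over 6 libraries that share pairs and depth, and the genes named as most alike are the highest of 11884 values.

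The genes around the members were read from 7 lists with 99 genes, of which 88 were tested and 0 passed in limma with the block. The CREB target list holds genes widely described as induced through CREs. Of its 27 genes 22 were tested, 19 of them with a positive fold change. Their median was 0.23 on the log2 scale, beside 0.01 over all tested genes. Higher in 3 of 3 pairs were 12 of the 22 and lower 0, beside 11.8% and 11% of tested genes. The replicate number also separated 11 of the 22 (adjusted p under 0.05 in limma's F test), beside 13.4% of tested genes and genes of each other list. The groups did not overlap in 4, all higher (Fos, Nr4a1, Nr4a2 and Areg), beside 2.08% of tested genes. Of the targets, 3 passed an adjusted p of 0.05 in DESeq2 as the authors' deposited table gives it, where 0.159% of genes did. The list was chosen with earlier results of these data known and holds immediate early genes that other pathways also induce, so it is no independent evidence of CREB activity.

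Nr4a1, an orphan nuclear receptor, had 7936, 4823 and 7033 normalized counts in irradiated libraries, against 4491, 3201 and 3485 in non-irradiated libraries. All irradiated values were above all non-irradiated ones, with a log2 fold change of 0.81 ± 0.10 (SE; adjusted p = 0.0908 in limma with the block). Ptgs2, the inducible cyclooxygenase, had 35618, 70008 and 65834 normalized counts in irradiated libraries, against 28645, 44701 and 39746 in non-irradiated libraries. It was higher in 3 of 3 pairs, with groups that overlapped and a log2 fold change of 0.56 ± 0.09 (SE; adjusted p = 0.438 in limma).

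Fosb, an AP-1 subunit, had 126, 445 and 487 normalized counts in irradiated libraries, against 66.0, 225 and 244 in non-irradiated libraries. Each irradiated library stood above its own pair, although the groups overlapped through replicate 1 (log2 fold change 0.96 ± 0.18 SE; adjusted p = 0.514 in limma). Nr4a2, a relative of Nr4a1, had 2529, 2981 and 2550 normalized counts in irradiated libraries, against 1906, 2252 and 1742 in non-irradiated libraries, with no overlap (log2 fold change 0.45 ± 0.09 SE; adjusted p = 0.740 in limma). Junb, another AP-1 subunit, had 4004, 5282 and 5623 normalized counts in irradiated libraries, against 3151, 4316 and 4230 in non-irradiated libraries. It was higher in 3 of 3 pairs with overlapping groups (log2 fold change 0.35 ± 0.08 SE; adjusted p = 0.995 in limma). In the authors' deposited table the adjusted p was 6.58e-10 for Nr4a1, 1.84e-05 for Ptgs2 and 0.0498 for Nr4a2, against 0.0989 for Fosb and 0.202 for Junb, in DESeq2. Whether the targets' fold changes differ from the members' was not tested.

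The remaining tested targets ranged widely, and those named here were chosen after their values were seen. Areg, an EGF receptor ligand, had the largest log2 fold change of the list, 1.14 ± 0.36 (SE), on means of 69.8 normalized counts in irradiated and 33.0 in non-irradiated libraries. Gem, Nr4a3, Btg2 and Fos had log2 fold changes of 0.55 ± 0.16, 0.46 ± 0.13, 0.41 ± 0.11 and 0.37 ± 0.16 (SE), each higher in 3 of 3 pairs. Per1, a clock gene induced by cAMP, had 0.10 ± 0.10, Nfil3 0.02 ± 0.09 and Egr1 0.04 ± 0.09, mixed in sign over the pairs. Scg2 had the lowest value, -0.73 ± 0.33, also with mixed pairs. Its normalized counts were 1248, 14.7 and 12.5 in irradiated replicates 1, 2 and 3, against 1186, 39.6 and 24.3 in non-irradiated ones. The negative value therefore rests on low counts in replicates 2 and 3. Of the 27 listed targets, 22 had a RefSeq promoter window. The core TGACG or CGTCA was in 20 of these 22 genes and in 21 of their 29 windows, against 20.8% of all windows. The full CRE was in 6 genes (Areg, Btg2, Dusp1, Scg2, Sst and Th). Over all windows its share was 1.79%, counted per window and not per gene. The list was chosen as genes described as induced through CREs, so these counts are not independent of that choice. Sst and Th are 2 of the 5 targets whose expression is not analysed here, with Pck1, G6pc and Crh.

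No gene of the other 6 lists passed in limma with the block, and list medians ran from 0.004 to 0.13 on the log2 scale. In limma's F test (adjusted p under 0.05) the replicate number separated 6 of 11 other cAMP phosphodiesterases. It separated 3 of 8 protein kinase A genes, 3 of 10 of cAMP synthesis and 3 of 13 CREB relatives and coactivators. It also separated 2 of 20 kinases and phosphatases and 1 of 4 class IIa histone deacetylases. The cAMP synthesis list (the G protein alpha subunit gene Gnas and the adenylyl cyclases) had a median of 0.004 on the log2 scale over 10 tested genes, of which 5 were positive. Adcy7, an adenylyl cyclase, had 3494, 10465 and 6945 normalized counts in irradiated libraries, against 3295, 7876 and 6823 in non-irradiated libraries, and was higher in 3 of 3 pairs (log2 fold change 0.17 ± 0.10 SE). Adcy6 had a log2 fold change of 0.09 ± 0.09 (SE). Both were highest in pair 2, with log2 ratios in pairs 1, 2 and 3 of 0.08, 0.41 and 0.03 for Adcy7. For Adcy6 they were -0.01, 0.24 and 0.02. Protein kinase A subunits and inhibitors had a median of 0.02 over 8 tested genes. Prkar2a and Prkar2b, which encode regulatory subunits, had log2 fold changes of 0.21 ± 0.10 and 0.16 ± 0.10 (SE). Prkar2a had log2 ratios of -0.01, 0.44 and 0.19 in pairs 1, 2 and 3, and Prkar2b 0.10, 0.33 and 0.06. Other cAMP phosphodiesterases had a median of 0.13 over 11 tested genes; 7 were positive, and 0 were higher in 3 of 3 pairs. Pde8a, a high-affinity cAMP phosphodiesterase, had 0.21 ± 0.10, with log2 ratios of -0.03, 0.41 and 0.25 in pairs 1, 2 and 3. The value of Pde1c, 1.97 ± 0.85, rests on at most 58.4 normalized counts in any library and on 0 in 1 non-irradiated library.

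CREB relatives and coactivators had a median of 0.04 on the log2 scale over 13 tested genes. Crebbp, the histone acetyltransferase recruited by phosphorylated CREB, had 2480, 2668 and 2713 normalized counts in irradiated libraries, against 2483, 1796 and 2526 in non-irradiated libraries, so that its log2 fold change of 0.22 ± 0.12 (SE) also came with a low non-irradiated replicate 2. Crebl2, a small CREB-like protein, was lower in 3 of 3 pairs (-0.32 ± 0.16). Kinases and phosphatases that act on CREB, CRTC or SIK proteins had a median of 0.01 over 20 tested genes, with Rps6ka2 at 0.17 ± 0.09 and Prkaa2 at 0.54 ± 0.29. Class IIa histone deacetylases, which SIKs also phosphorylate, had a median of 0.07 over 4 genes, with Hdac4 at 0.15 ± 0.11 and Hdac7 at 0.14 ± 0.09. The log2 ratios of Hdac4 in pairs 1, 2 and 3 were 0.01, 0.42 and 0.04. Those of Hdac7 were -0.04, 0.18 and 0.29. Over these 6 lists 1 gene, Pde1c, had an unadjusted p under 0.05 (p = 0.0474 in limma); 0 passed in the authors' deposited table.

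**Figure D4:**
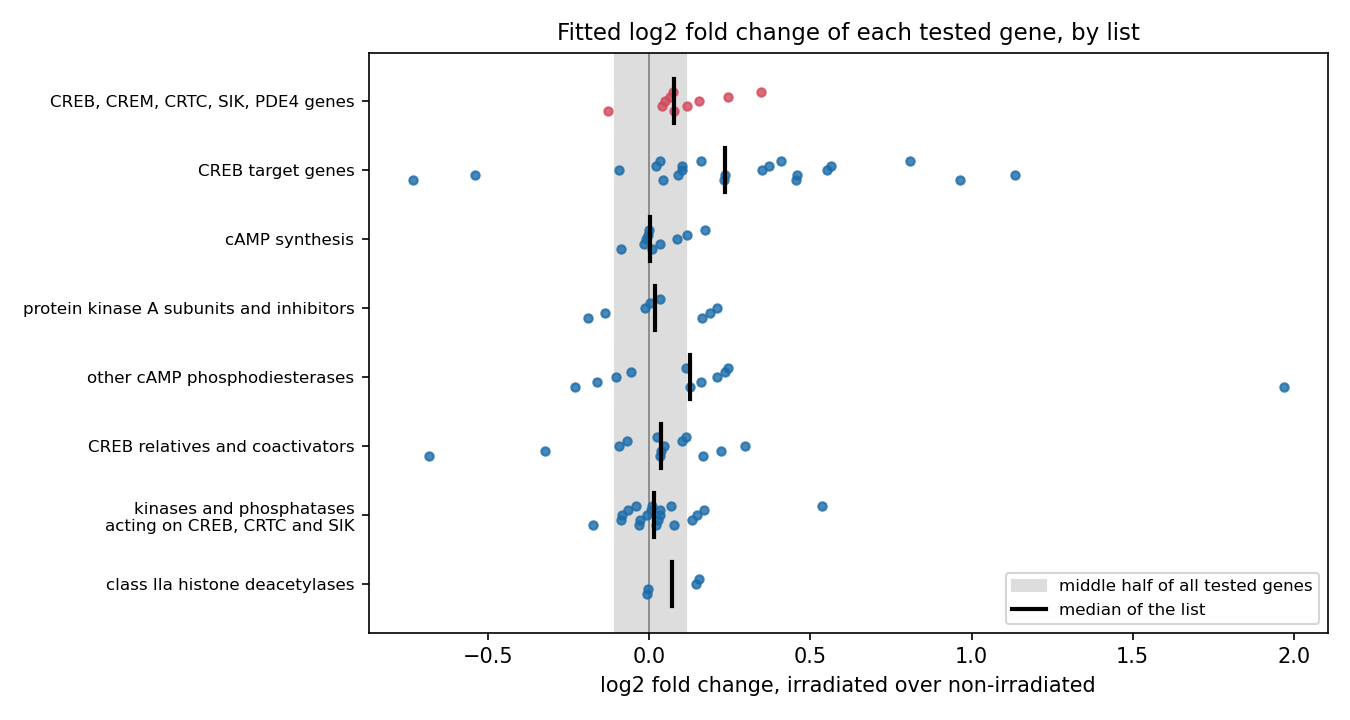
Fitted log2 fold change, irradiated over non-irradiated, of each tested gene of the 10 members (red) and of 7 pathway lists (blue); black ticks are list medians and the grey band runs between the quartiles of all tested genes, from -0.11 to 0.11. The CREB target median of 0.23 lies right of the band, the median of the other phosphodiesterases (0.13) just right of it, and those of the members (0.08) and the other lists inside it.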

How the data were processed

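The submitters' processing notes name HISAT2 2.2.1, StringTie 2.1.7, Trimmomatic 0.39 and FastQC 0.11.9, and the build GRCm39; which annotation release, counter and strand setting were used is not given in the sources used here. Normalized counts in the deposited table are a signal: the authors divided each library's gene counts by its size factor. It also holds, per the file headers, the authors' log2 fold changes with standard errors, a test statistic (a score) and p-values. Of 20745 rows, 80 repeated identifiers were dropped. Dividing by each library's smallest step returned whole numbers for 100% of the values (within 0.001), 45178137 to 59904715 per library.

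The 16141 genes that reached 10 normalized counts in 3 or more libraries were tested on log2(normalized count + 1), a scale that understates the change of low genes, with limma 3.58.1 (trend, R 4.3.3) and the replicate number as a block, 2-sided, Benjamini-Hochberg adjusted over all tested genes, threshold 0.05. The numbers were taken to pair the libraries because deviations from group means correlated at 0.64, 0.47 and 0.57 between same-numbered libraries over 13054 genes, against at most 0.01 otherwise. Each group was centred on its own mean, which pushes the other correlations below 0 when same-numbered ones are positive, so the 2 sets are not independent. The block leaves 2 residual degrees of freedom. Alternatives, including edgeR 4.0.16 and DESeq2 1.42.0 on these whole numbers as recovered counts, are in the closing section. Tests were tried on simulated data. Members and lists were chosen with earlier results of these data known. All members are named, with the 2 genes of smallest p per list (5 for CREB targets) and the 5 genes most correlated with Sik1; the same for Crem is not reported here. Promoters are from RefSeq (GRCm38.p6), exon lengths and overlaps from GENCODE M21, another build than the authors', so no other coordinates are printed.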

Additional observations from a re-analysis of the deposited data

How the results depend on the processing

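No member was called under any of the 16 alternatives. With all replicates kept, the 10 member fold changes kept their direction in 129 of 130 values over 13 alternatives; the exception was Pde4b in edgeR without a term for the replicate (-0.00019), an alternative chosen after seeing the data. Without replicate 1, 2 or 3 of both groups (with the block, leaving out 1 library gives the same fold changes as leaving out its pair), the log2 fold changes ran from -0.061 to 0.25 for Creb1, -0.060 to 0.14 for Crem, -0.17 to -0.06 for Crtc1, 0.03 to 0.11 for Crtc2, -0.011 to 0.19 for Crtc3, 0.07 to 0.51 for Sik1, -0.031 to 0.52 for Sik2, 0.08 to 0.22 for Sik3, -0.10 to 0.15 for Pde4b and -0.018 to 0.13 for Pde4d. The smallest adjusted p of a member among these was 0.201 (Sik2 without replicate 1, in limma). The median over the members ran from -0.02 to 0.17 and that of the CREB targets from 0.21 to 0.33.

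Across all tested genes, limma with the replicate block called 0 genes higher and 3 lower. With no replicate block it called 0 and 0, without a trend 0 and 0, without a filter 0 and 0, and with robust moderation 1 and 3. DESeq2 with the replicate number and the authors' deposited table each called 16 higher and 8 lower, and edgeR without the term for the replicate 0 and 0. Leaving out a replicate number gave 18 to 28 genes higher and 14 to 36 lower. Genes that differed between replicate numbers numbered 2165, with no filter 1154, and 1345 to 2579 without one of the numbers; members that differed numbered 1, with no filter 0, and 1 to 2 without one. The cause of these shifts was not tested. The block changed no call on a member. In limma with the block even Nr4a1, at a log2 fold change of 0.81, did not pass (adjusted p = 0.0908).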
